A study of Homo sapiens with 9 samples.

Results

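The mitochondrial carrier family SLC25 was followed in ZR-75-1 cells given a mimic of miR-150-5p. The members were all genes of the platform's probe annotation whose symbol begins with SLC25A and a number, each read through the probeset with the highest mean over all arrays. This rule found 7 of the 14884 genes tested. Of these, 2 encode carrier proteins (SLC25A15 and SLC25A2), and 5 are a pseudogene or antisense RNA genes named after a carrier. Of 48 carrier symbols listed by role, the other 46 have no probeset named in the annotation used and were not analysed here.

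ZR-75-1 is an established breast cancer cell line that carries the estrogen receptor, and all samples were this line, harvested 48 h after transfection with the same lipid reagent. The 9 arrays (Affymetrix Human Gene 2.0 ST) formed 3 groups of 3: cells given 50 nM miR-150-5p mimic, cells given 50 nM of a non-specific negative control RNA, and mock cells given lipid with no RNA. The stated purpose was to restore miR-150-5p in this line. Triplicate transfections of 1 line are stated without saying whether they were separate experiments, so the p-values rest on the spread among these 9 samples, which may be technical in part.

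SLC25 proteins sit in the inner mitochondrial membrane and move metabolites, nucleotides and cofactors between cytosol and matrix. SLC25A15 brings ornithine into the matrix in exchange for citrulline, which links the urea cycle in liver with its mitochondrial step, and its loss in humans causes the hyperornithinemia-hyperammonemia-homocitrullinuria syndrome. In cells outside the liver, ornithine also feeds proline and polyamine synthesis. SLC25A2 encodes a second ornithine carrier close in sequence to SLC25A15, which also accepts other basic amino acids.

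SLC25A15 was the member that changed, so the DNA before its start is shown. RefSeq promoter entries were matched for 5 of the 7 members. The sequence is the 250 bases upstream of the annotated start, on the plus strand of chromosome 13 in GRCh38.p14, chr13:40789361-40789610, with GC boxes (GGGCGG on either strand) in capitals:

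SLC25A15: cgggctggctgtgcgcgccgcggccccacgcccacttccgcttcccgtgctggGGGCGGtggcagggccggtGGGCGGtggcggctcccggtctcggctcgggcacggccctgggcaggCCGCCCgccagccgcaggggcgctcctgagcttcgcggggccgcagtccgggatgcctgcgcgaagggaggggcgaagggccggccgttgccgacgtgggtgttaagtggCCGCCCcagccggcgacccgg

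The window holds 4 GC boxes, beginning 197, 178, 131 and 21 bases before the start, and 79.6% of its bases are G or C, against a median of 58.0% over 35116 windows of the same length. A GC box lies in 42.6% of all these windows and in 34 of 51 windows of SLC25A carrier genes. The other 5 motifs searched, on both strands, were not found in it. These were CCAAT (in 32.0% of all windows), the E-box CACGTG (6.35%), the amino acid response element TGATGNAA (3.14%), the palindromic NRF1 motif (1.03%) and the full palindromic estrogen response element (0.0399%). These letters are not in this window, and no binding was measured.

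SLC25A15 transcripts stood lower in every mimic array than in every control array. Its log2 intensity was 4.85, 5.23 and 4.80 in the 3 mimic arrays, against 5.86, 6.13 and 6.30 in the negative control arrays and 6.05, 5.86 and 6.12 in the mock arrays. The groups did not overlap: the lowest control array lay 0.63 log2 units above the highest mimic array, while the 6 control arrays spanned 0.44 and the 3 mimic arrays 0.44. The mean was 4.96 ± 0.24 in mimic, 6.10 ± 0.22 in negative control and 6.01 ± 0.14 in mock cells (SD, n = 3 each). In extracts of whole cultures, fewer cells that express a gene and less RNA per cell cannot be told apart.

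**Figure D1:**
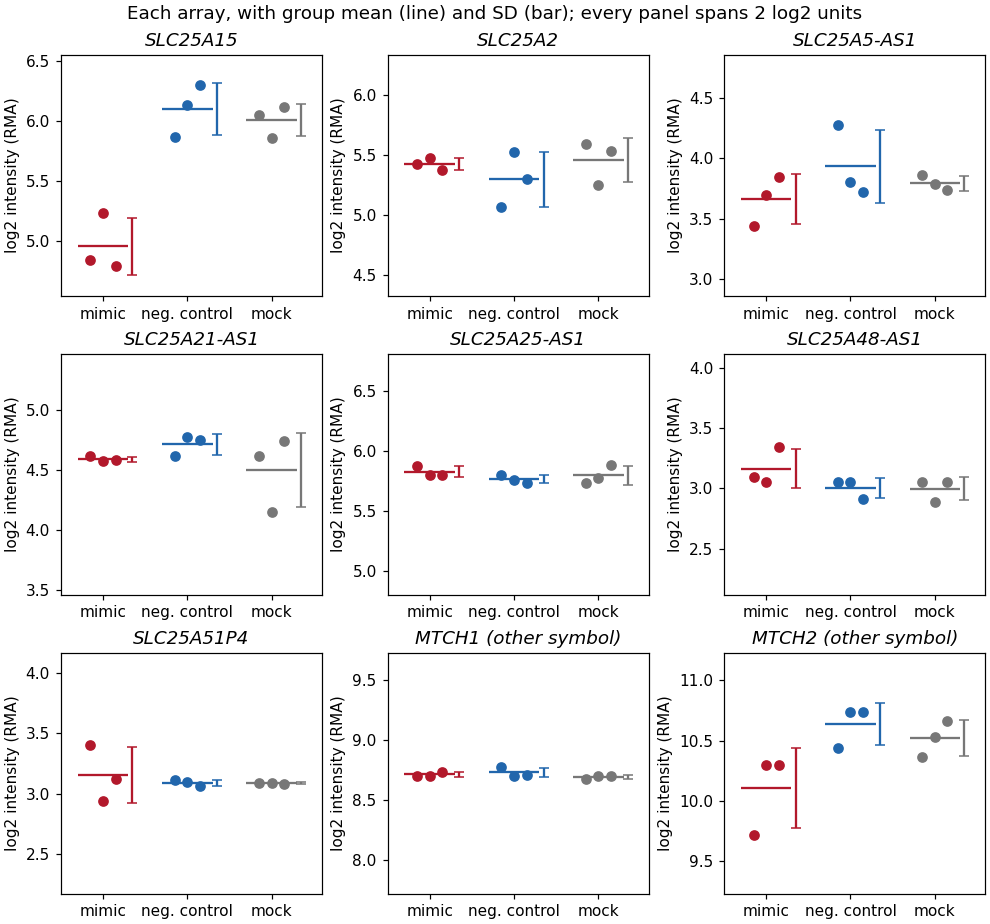
Log2 intensity (RMA scale, vertical axis) of the 7 SLC25 members and of the relatives MTCH1 and MTCH2 on each array, with a line at the group mean and a bar for the SD. Every panel spans the same range, and only in the SLC25A15 and MTCH2 panels do all 3 mimic arrays (4.80 to 5.23 for SLC25A15) lie below all 6 control arrays.

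Against the negative control RNA, given at the same dose, SLC25A15 fell by 1.14 ± 0.14 on the log2 scale (SE, n = 3 per group), which is 2.20-fold, with a limma adjusted p = 0.0168 and a 95% interval from -1.46 to -0.82. SLC25A15 was 1 of 7 members called in this comparison, where 0.551% of all genes were called and 0.349% were called lower. It ranked as the fall number 4 by size among the 14884 genes. The gene was singled out for description with this fall already known, so its p-value is not independent evidence. The log2 change lay between -1.28 and -1.04 when any 1 array was left out, but the call was lost without mimic replicate 1 (adjusted p = 0.0601) or 3 (0.0514) and without negative control replicate 2 (0.0727) or 3 (0.0756). It was also lost with the replicate number as a block (0.0511), with only the arrays of these groups fitted (0.0789) and with all probesets tested (0.0937).

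Against lipid without RNA, SLC25A15 fell by 1.05 ± 0.14 (SE, n = 3 per group) or 2.07-fold, with a limma adjusted p = 0.0321 and a 95% interval from -1.37 to -0.73. Again 1 of 7 members was called, where 0.302% of all genes were and 0.134% were called lower. In limma fits that left out 1 of the 9 arrays the change lay between -1.19 and -0.97, and the call was lost in each of the 9 fits, with adjusted p-values from 0.0502 without negative control replicate 1 to 0.117 without mock replicate 1. The other values were 0.0981, 0.0624 and 0.0906 without mimic replicate 1, 2 or 3, then 0.0759 and 0.0639 without negative control replicate 2 or 3, and 0.103 and 0.0922 without mock replicate 2 or 3. The call was also lost with the replicate number as a block (0.0762), with only the arrays of these groups fitted (0.117) and with all probesets tested (0.164).

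Both comparisons use the same 3 mimic arrays. Setting these against the mean of the control groups gave a fall of 1.09 ± 0.12 (SE, 3 mimic and 6 control arrays), or 2.14-fold, to 46.8% of the control level. The limma adjusted p was 0.00695, with a 95% interval from -1.37 to -0.82. SLC25A15 was again 1 of 7 members called, where 1.10% of all genes were called and 0.591% were called lower. It ranked as the fall number 3 by size. An exact two-sided permutation test over the 9 arrays gave p = 0.0119, the smallest that 84 arrangements allow. This p can arise only where the groups are apart, as they were for 7.68% of all genes (mimic lower for 3.46%). The gene was chosen with its fall known, so this p is not independent evidence. In this comparison the call held in all 9 fits that left out 1 array, with limma adjusted p-values from 0.0161 to 0.0437.

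No difference between the controls passed for SLC25A15. The negative control stood 0.09 ± 0.14 above mock (SE, n = 3 per group, limma adjusted p = 0.976), with a 95% interval from -0.23 to 0.41, and the sign turned without negative control replicate 3 (-0.01). No member was called here, and 0% of all genes were: 0 of 14884 at a limma adjusted p under 0.05, and 622 at an unadjusted p under 0.05, which is 4.18%. Of the 7 members 0 had an unadjusted p under 0.05.

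**Figure D2:**
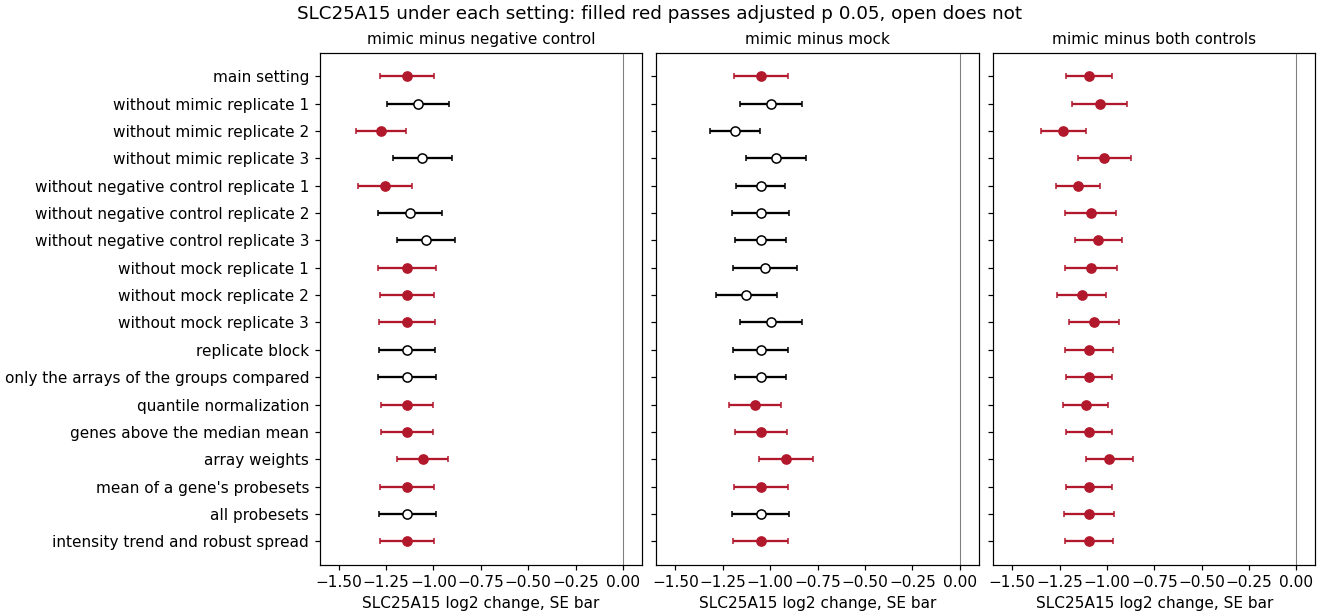
Log2 change of SLC25A15 (horizontal axis, SE bars) in the main setting and under 17 alternatives, for 3 comparisons of the mimic. All points lie between -1.28 and -0.92, and filled points, which pass an adjusted p of 0.05, are complete only in the panel against both controls.

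SLC25A2, the second ornithine carrier, did not follow SLC25A15. Its log2 intensity was 5.42, 5.48 and 5.37 in mimic arrays, against 5.07, 5.52 and 5.30 in negative control arrays and 5.59, 5.25 and 5.53 in mock arrays. The mimic arrays lay inside the range of the controls. The change was 0.13 ± 0.12 against the negative control (SE, n = 3 per group, limma adjusted p = 0.719), with a 95% interval from -0.15 to 0.41. Against mock it was -0.04 ± 0.12, with an interval from -0.31 to 0.24. Against both controls it was 0.05 ± 0.11, with an interval from -0.20 to 0.29, so a fall of the size seen for SLC25A15 lay outside each of these intervals.

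The difference between the carriers was tested directly, as the change of SLC25A15 minus that of SLC25A2 in mimic against the 6 control arrays. It was -1.14 on the log2 scale, with an exact two-sided permutation p = 0.0119, the smallest possible with 84 arrangements, and lay between -1.25 and -1.08 when any 1 array was left out. SLC25A15 was chosen with its fall known and this test was not planned beforehand, so it only describes the pair. The mean of SLC25A2 over all arrays (5.39) lay just below 5.44, the median of all gene means, and the table holds no detection call. Probe sequences were not used here, so a contribution of 1 carrier's RNA to the other's probeset was not tested.

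The 4 antisense RNA genes showed no called change. SLC25A5-AS1 lies opposite SLC25A5, a gene of the ADP/ATP translocase that exports ATP from mitochondria, and RefSeq starts of the pair are as near as 182 bases. It had 3.44, 3.70 and 3.85 in mimic arrays, against 4.28, 3.80 and 3.72 in negative control arrays and 3.86, 3.79 and 3.74 in mock arrays. Negative control replicate 1 was the highest and mimic replicate 1 the lowest array, and the remaining 7 lay between 3.70 and 3.86. Its change against both controls was -0.20 ± 0.13 (SE, 3 and 6 arrays, limma adjusted p = 0.537), with an interval from -0.49 to 0.09. It was -0.09 without mimic replicate 1 and -0.12 without negative control replicate 1.

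SLC25A21-AS1 lies opposite SLC25A21, which carries oxodicarboxylates of lysine and tryptophan breakdown. Its log2 intensity was 4.61, 4.57 and 4.58 in mimic arrays, against 4.61, 4.77 and 4.75 in negative control arrays and 4.61, 4.15 and 4.74 in mock arrays. Mock replicate 2 stood lowest, and without it the mimic-against-mock change of 0.09 ± 0.13 (SE) became -0.09. Against both controls the change was -0.02 ± 0.12 (limma adjusted p = 0.962), with an interval from -0.28 to 0.24.

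SLC25A25-AS1 is named after SLC25A25, an ATP-Mg/phosphate carrier regulated by calcium. It had the narrowest range of the members, 0.15 log2 units over 9 arrays: 5.88, 5.80 and 5.80 in mimic, 5.80, 5.76 and 5.74 in negative control and 5.73, 5.78 and 5.88 in mock arrays. The change against both controls was 0.05 ± 0.06 (SE, limma adjusted p = 0.772), with an interval from -0.09 to 0.18.

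SLC25A48-AS1 is named after SLC25A48, a carrier linked to mitochondrial choline uptake. It had 3.09, 3.05 and 3.35 in mimic arrays, against 3.05, 3.05 and 2.91 in negative control and 3.05, 2.89 and 3.05 in mock arrays. The deposited table gives 1 identical value on 5 of the 9 arrays for it, and mimic replicate 3 alone stood clearly above that value. The change against both controls was 0.16 ± 0.08 (SE, limma adjusted p = 0.429), with an interval from -0.02 to 0.35. It was 0.07 without mimic replicate 3 and 0.22 without mimic replicate 2.

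SLC25A51P4 is a transcribed pseudogene related to SLC25A51, the mitochondrial NAD carrier. It had 3.40, 2.94 and 3.12 in mimic arrays, against 3.11, 3.10 and 3.06 in negative control and 3.09, 3.09 and 3.08 in mock arrays. The mimic arrays held both the highest and the lowest value, with an SD of 0.23, against 0.03 in negative control and 0.01 in mock cells (n = 3 each). The mean change against both controls was 0.06 ± 0.09 (SE, limma adjusted p = 0.797), and without mimic replicate 1 it was -0.06. Whether this probeset also reads its parent gene was not tested.

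The pseudogene and the antisense probesets other than SLC25A25-AS1 lay below the median of gene means, with means over the 9 arrays from 3.05 to 4.60. No source used here says which strand the probesets read, so RNA of an antisense gene and of its sense partner cannot be told apart. Over all 7 members, 4 changes against both controls were positive and 3 negative, with a median of 0.05, beside a median of 0.01 and 53.9% positive changes over all genes. The arrays of mimic and both controls were apart for 1 member, SLC25A15, where this held for 7.68% of all genes.

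**Figure D3:**
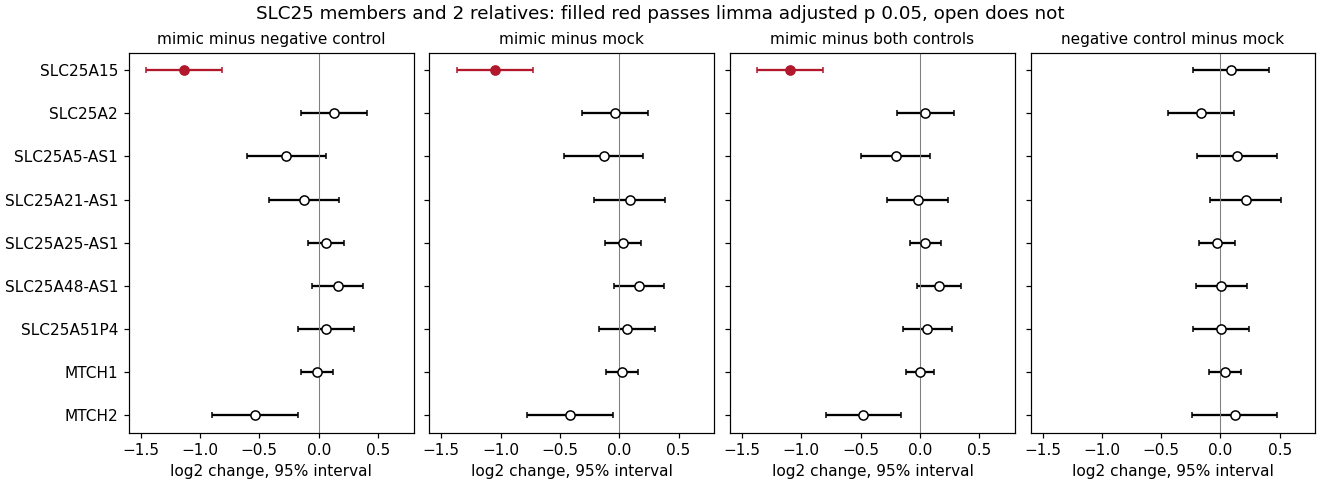
Log2 change with its 95% interval for the 7 members and for MTCH1 and MTCH2 in 4 comparisons. SLC25A15 is the only filled point, near -1.1 in each comparison of the mimic (-1.14, -1.05 and -1.09) and at 0.09 between the controls.

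MTCH1 and MTCH2 belong to the same protein family but carry other symbols and sit in the outer membrane, where MTCH2 helps to insert proteins. They were outside the rule, and of 5 relatives listed under other symbols these were the 2 measured. MTCH2 had 9.72, 10.30 and 10.30 in mimic arrays, against 10.44, 10.74 and 10.74 in negative control arrays and 10.37, 10.53 and 10.66 in mock arrays. Its mimic arrays lay below all controls, as for 3.46% of all genes. Its change against both controls was -0.48 ± 0.14 (SE, 3 and 6 arrays), which did not pass (limma adjusted p = 0.172). It was -0.28 without mimic replicate 1 and lay between -0.57 and -0.28 over the 9 fits that left out 1 array. MTCH1 had a change of 0.00 ± 0.05 (limma adjusted p = 0.988), with an interval from -0.11 to 0.12. Its 3 mimic arrays lay between 8.70 and 8.74, and the 6 control arrays between 8.67 and 8.78.

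None of the measured genes of ornithine metabolism was called beside the carrier, which is near the share called over all genes. Of 27 listed genes of ornithine, proline, urea cycle and polyamine metabolism 19 were measured, ARG1 and ARG2 not among them. In mimic against both controls 0 rose and 0 fell in limma's test, where 1.10% of all genes were called, and 3 had an unadjusted p under 0.05, as had 13.5% of all genes. The median log2 change of the 19 was 0.00, beside 0.01 over all genes, and 8 were positive and 11 negative. The same counts of 0 called held against the negative control and against mock alone, where 0.551% and 0.302% of all genes were called. In each, 1 of the 19 had an unadjusted p under 0.05, beside 12.6% and 10.7% of all genes.

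The 3 measured enzymes that act on ornithine itself were looked at by role, outside the naming rule. ODC1, ornithine decarboxylase of polyamine synthesis, had 5.38, 6.09 and 6.32 in mimic arrays, against 6.37, 6.39 and 6.21 in negative control and 6.56, 6.21 and 6.16 in mock arrays. Only mimic replicates 1 and 2 lay below the controls, and the change of -0.39 ± 0.18 (SE) did not pass (limma adjusted p = 0.403). It rested largely on mimic replicate 1: without it the change was -0.11, and over all 9 fits that left out 1 array it lay between -0.58 and -0.11. OAT, the mitochondrial ornithine aminotransferase, had a change of 0.15 ± 0.08 (limma adjusted p = 0.446), which was 0.05 without mimic replicate 3 and 0.22 without mimic replicate 1. OTC, the urea cycle enzyme that consumes imported ornithine in liver, had a change of 0.03 ± 0.09 at a mean log2 intensity of 2.95 in mimic, 2.80 in negative control and 3.05 in mock cells, well below the median of gene means.

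By the lowest p, the list's genes to name were ASS1 and AZIN1, neither of which passed. ASS1, which joins citrulline and aspartate in the urea cycle, had 10.77, 10.72 and 10.77 in mimic arrays, against 10.94, 11.01 and 10.97 in negative control and 10.91, 10.90 and 10.76 in mock arrays. The mimic and mock arrays overlapped, and the change against both controls was -0.16 ± 0.06 (SE, limma adjusted p = 0.266). AZIN1, which protects ornithine decarboxylase from its antizyme, had a change of -0.20 ± 0.08 (limma adjusted p = 0.319), which was -0.13 without mimic replicate 1. The third gene with an unadjusted p under 0.05, SRM, went the other way, at 0.16 ± 0.07 (limma adjusted p = 0.330). Mimic and control arrays were apart for 1 of the 19 genes, SRM, beside 7.68% of all genes.

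Carriers reach the inner membrane through the outer-membrane TOM complex and the TIM22 insertase. Of 12 listed genes of this route 11 were measured, and 0 rose and 0 fell in any of the 4 comparisons in limma's test. Of all genes 0.551% were called against the negative control, 0.302% against mock, 1.10% against both controls and 0% between the controls. In mimic against both controls 2 of the 11 had an unadjusted p under 0.05, beside 13.5% of all genes. The median log2 change there was -0.06, beside 0.01. The 2 were TOMM20, a receptor, at 0.32 ± 0.09 (SE, limma adjusted p = 0.153), and TOMM40, the pore, at -0.21 ± 0.06 (adjusted p = 0.154), whose dimmer second probeset had overlapping groups. TOMM20 had 7.67, 7.88 and 7.82 in mimic arrays, 7.27, 7.38 and 7.12 in negative control arrays and 7.81, 7.75 and 7.53 in mock arrays, so that the negative control arrays stood apart from both other groups.

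Of 12 further mitochondrial transporters all 12 were measured and none passed: 0 rose and 0 fell in limma's test in mimic against both controls, where 1.10% of all genes were called. An unadjusted p under 0.05 was found for 3 of the 12, beside 13.5% of all genes, and their median change was -0.02, beside 0.01. The lowest p belonged to MPC1, a subunit of the pyruvate carrier (0.14 ± 0.05, SE, limma adjusted p = 0.284), and SFXN2, a sideroflexin (0.26 ± 0.10, adjusted p = 0.288). The third, the sideroflexin SFXN3, went the other way (-0.21 ± 0.08, limma adjusted p = 0.328), with overlapping groups. SFXN2 had 7.98, 8.41 and 8.43 in mimic arrays, against values from 7.97 to 8.07 in the 6 control arrays. Mimic replicate 1 stood with the controls, and without it the change was 0.41 and passed (limma adjusted p = 0.0437).

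**Figure D4:**
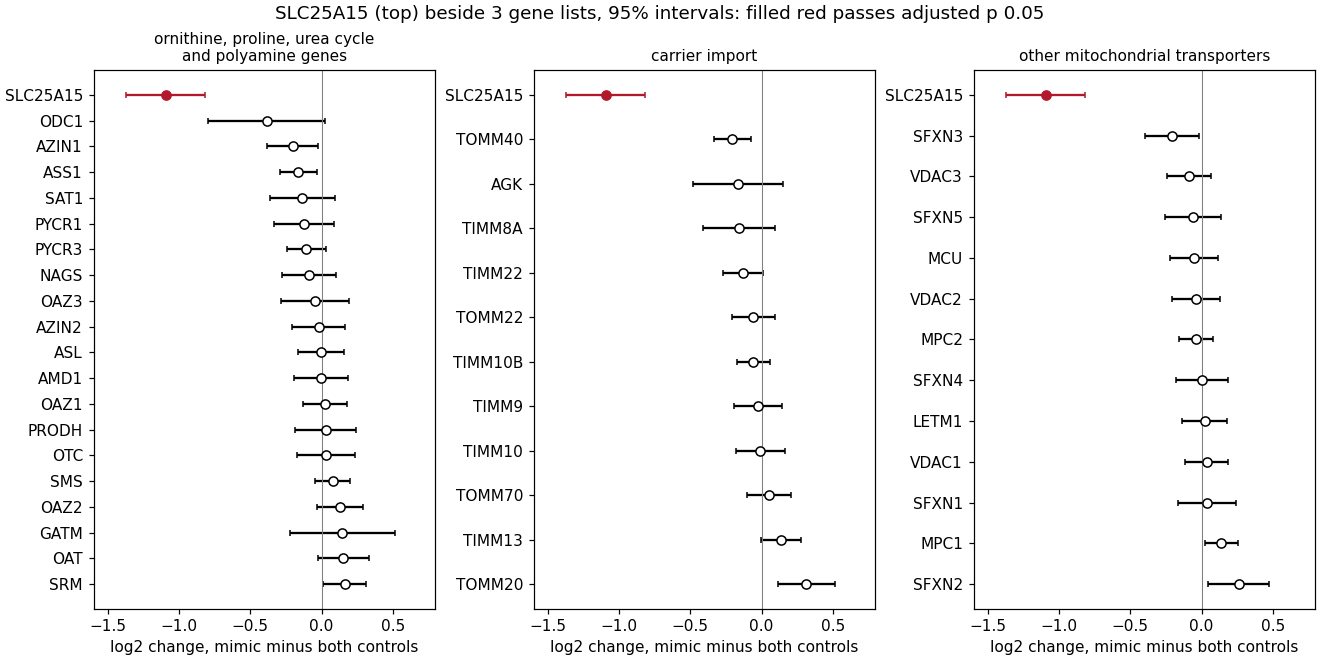
Log2 change of mimic minus both controls with 95% intervals for SLC25A15 (top of each panel) and the measured genes of 3 lists: ornithine, proline, urea cycle and polyamine metabolism, carrier import, and other mitochondrial transporters. SLC25A15, at -1.09, is the only filled point, and the list genes lie between -0.39 (ODC1, -0.11 without mimic replicate 1) and 0.32 (TOMM20).

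The genes whose pattern was most like that of SLC25A15 were not members. As only 7 of the 14884 genes are members, this says little about the family. By Pearson correlation over the 9 arrays, which share the groups and the normalization, the first 5 of all genes were ENSA (r = 0.976), CEP20 (0.975), RRAS (0.964), CMTM1 (0.957) and GINS1 (0.953). Among the members the highest r were 0.33 for SLC25A5-AS1 and 0.21 for SLC25A21-AS1, SLC25A2 had 0.0097, and the lowest was -0.68 for SLC25A48-AS1. After each group's mean was taken off, r was between 0.52 and 0.78 for the 5 genes. On that measure SLC25A2 had 0.63, which is above RRAS at 0.52, and SLC25A21-AS1 had 0.49, while the other 4 members had -0.56 to -0.21. These are descriptions of 9 points, chosen for their likeness.

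CEP20, a centrosomal protein, had 8.45, 8.58 and 8.33 in mimic arrays, against 9.40, 9.38 and 9.46 in negative control and 9.23, 9.14 and 9.41 in mock arrays. In both CEP20 and SLC25A15, mimic replicate 2 was the highest mimic array. The log2 change against both controls was -0.88 for CEP20, -0.53 for RRAS, a Ras-family GTPase, -0.40 for GINS1, a subunit of the replicative helicase, -0.36 for ENSA, an inhibitor of a mitotic phosphatase, and -0.19 for CMTM1. In limma's test CMTM1 was not called (adjusted p = 0.138). CEP20 was called (0.00337) and stayed called in all 17 alternatives. RRAS was called (0.00887) but not without mimic replicate 2 (0.0532) or with all probesets tested (0.0558). The calls of ENSA (0.0271) and GINS1 (0.0453) were lost in 8 and in 9 of the 9 fits that left out 1 array, and both were lost with the replicate block (0.0659 and 0.0612) and with all probesets (0.117 and 0.151).

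**Figure D5:**
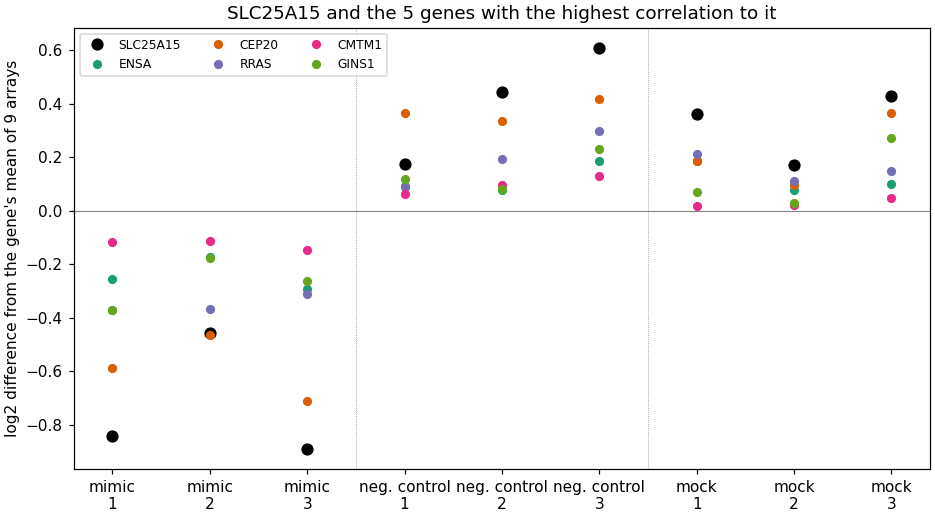
Difference of each array from the gene's own mean of 9 arrays (log2 units, vertical axis) for SLC25A15 and the 5 genes with the highest correlation to it. All 6 genes lie below their mean on the 3 mimic arrays and above it on the 6 control arrays, and SLC25A15 is the lowest of them on mimic replicates 1 and 3.

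Across the whole table, the median of all probesets lay between 4.22 and 4.27 on every array, and no 2 arrays held identical values. The MIR150 probeset showed no called change (0.11 ± 0.19 against the negative control, SE, limma adjusted p = 0.851), and no source used here says whether it reads the transfected strand, so it does not check delivery. All 8 measured of 9 luminal epithelial markers lay above the median of gene means. Of these, ESR1, the estrogen receptor gene, rose by 0.45 ± 0.06 against both controls (SE, limma adjusted p = 0.0128), a call lost without mimic replicate 1 (0.0523) or 2 (0.0658) and with all probesets tested (0.0674), and the other 7 were not called. Of 8 markers of leukocytes, fibroblasts and endothelium 3 were measured: LYZ of leukocytes, PECAM1 and VWF of endothelium, and none of fibroblasts. These 3 lay below the median of gene means, between 2.43 and 3.61 on all arrays, and 0 were called. All 3 had positive changes against both controls: 0.53 ± 0.15 for PECAM1, 0.15 ± 0.07 for LYZ and 0.02 ± 0.05 for VWF (SE, limma adjusted p = 0.142, 0.357 and 0.914). The mimic arrays lay above all control arrays for PECAM1 and LYZ, but the dimmer second probeset of LYZ had overlapping groups. PECAM1 and LYZ also had an unadjusted p under 0.05, as had 13.5% of all genes. Groups were apart in either direction for 7.68% of all genes, with mimic lower for 3.46%. The part of these markers in the SLC25A15 result was not tested. The leading principal component held 24.0% of the variance, and on it the mimic arrays lay between -15.6 and -6.62 and the control arrays between 0.41 and 9.74. Mimic replicate 2 was the mimic array nearest to the controls on this component, as it was for SLC25A15.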

How the data were processed

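Per the submitters' processing notes, the authors made the deposited log2 values with RMA, which corrects background, equalises arrays and summarises probes. No source used here gives its version, annotation or build. The table holds 53617 probesets on 9 arrays, with no detection call. Precision is limited by how few arrays there are. In the platform's annotation 16098 probesets have 1 symbol, 0 have several, and 37519 have no name here. All 16098 identifiers matched RefSeq (GRCh38.p14), changing 0 symbols. Every member has 1 probeset.

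The values were fitted in R 4.3.3 with limma 3.58.1 (lmFit, eBayes), 1 mean per group over all 9 arrays with 6 residual degrees of freedom, for 14884 genes. P-values are two-sided, adjusted by Benjamini-Hochberg over all genes of a comparison, with a threshold of 0.05. Exact tests set the mimic arrays against all 6 controls, since with 3 against 3 the smallest p is 0.1. The code was tested on simulated data.

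Members and lists were chosen with earlier results of these data known. Named are all members, list genes that passed or else the 2 with the lowest p in mimic against both controls, and the 5 genes most correlated with SLC25A15. ODC1, OAT and OTC were added by role, and SRM and SFXN3 as the remaining genes of their lists with an unadjusted p under 0.05. Lists held carriers by role, relatives under other symbols, ornithine metabolism, carrier import, other mitochondrial transporters and cell type markers. Alternatives left out arrays, or changed the block, samples, normalization, filter, weights, probesets or spread model.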

Additional observations from a re-analysis of the deposited data

How the results depend on the processing

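Against both controls, SLC25A15 was called under all 17 alternatives (adjusted p from 0.00156 to 0.0484), its change lay between -1.23 and -0.99, and the count of members called was 1 in each. Same-numbered arrays of different groups correlated by -0.06 to 0.13 in their deviations from the group mean. The second principal component held 19.3% of the variance. On it, replicate 1 was positive in each group (11.7 in mimic, 2.89 in negative control, 6.71 in mock). Replicate 3 was negative in each (-16.9, -4.79 and -5.20), and replicate 2 had -1.89, -2.94 and 10.4. Whether the replicate number marks a shared step was not tested. With the replicate block SLC25A15 did not pass against the negative control (-1.14, adjusted p = 0.0511) or mock (-1.05, 0.0762), with 0 members called in each, and 16, 3 and 95 genes were called against negative control, mock and both, in place of 82, 45 and 163. With only the arrays of the groups compared SLC25A15 did not pass either (-1.14, 0.0789, and -1.05, 0.117), with 0 members and 8 and 1 genes called. Nor did it pass with all probesets tested (-1.14, 0.0937, and -1.05, 0.164), with 0 members called. The counts of 6, 3 and 22 called there are of 53617 probesets, named or not, and so are unlike the gene counts. Genes above the median mean gave 263, 102 and 348 calls, and against the negative control array weights gave 268 and the intensity trend 169. Leaving out 1 array gave 7 to 121, 1 to 10 and 31 to 102 genes, 0 to 1, 0 to 0 and 1 to 1 members, and SLC25A15 changes of -1.28 to -1.04, -1.19 to -0.97 and -1.23 to -1.01. Between the controls SLC25A15 ranged from -0.011 to 0.21, and 0 genes were called in all alternatives run.

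Uncalled changes near 0 turned sign. With array weights SLC25A51P4 was -0.03 in each comparison of the mimic (-0.029, -0.032 and -0.031), and between the controls it was -0.0028 and SLC25A48-AS1 -0.00070. With quantile normalization MTCH1 was -0.042 against both controls. Leaving out 1 array gave SLC25A51P4 -0.062 to 0.17 against negative control, -0.059 to 0.17 against mock, -0.060 to 0.17 against both, and -0.0083 to 0.018 between controls. It gave SLC25A2 -0.14 to 0.032 against mock and -0.012 to 0.10 against both, SLC25A21-AS1 -0.087 to 0.21 and -0.11 to 0.041, SLC25A25-AS1 -0.0050 to 0.071 against mock and -0.067 to 0.0090 between controls, SLC25A48-AS1 -0.048 to 0.056 and SLC25A5-AS1 -0.03 to 0.25 between controls, and MTCH1 -0.0086 to 0.014 and OTC -0.028 to 0.089 against both. The causes were not tested. ENSA, GINS1, RRAS and ESR1 lost their call against both controls under 1 or more alternatives, and CEP20 under none run.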
